A study of Mus musculus with 8 samples.

Results

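A set of 10 genes taken as markers of the endothelium of continuous vessels was followed in mouse liver: Pecam1, Cdh5, Vwf, Cd34, Plvap, Esam, Emcn, Aplnr, Sox17 and Ly6a. They were taken by name, as the rows with these symbols in the deposited expression table, and all 10 of the 10 were found among 35204 gene symbols. All 10 passed the filter on low values (a mean of at least 10 normalised counts over the 8 libraries), as did 14171 genes of the table. Aplnr passed only through the TAZ-CCl4 libraries, with a mean of 67.0 there and 1.02 in controls. Its call and its place in the counts below carry that limit. The set is read here as genes of continuous vessels, a reading that concerns sinusoid capillarisation and the vessels of tumours. The genes need not be absent from sinusoidal cells. Plvap, Pecam1 and Cdh5 averaged 566, 293 and 195 normalised counts in controls, and which vessels these came from was not tested.

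Poly-A RNA of liver pieces was sequenced in 8 libraries. The 5 libraries called TAZ-CCl4 here came from wild-type C57BL/6J mice given an EF1a-TAZS89A construct by HTVI together with carbon tetrachloride (CCl4), injected 30 times, 3 times a week over 10 weeks. The 3 control libraries came from untreated wild-type C57BL/6J mice. HTVI usually means hydrodynamic injection through the tail vein, a way to bring plasmid DNA mainly into hepatocytes, and EF1a is a promoter active in most cell types. TAZ, encoded by Wwtr1, is a coactivator that the Hippo pathway restrains, S89A removes a site through which it is held in the cytoplasm, and CCl4 is a hepatotoxin. The groups differ in construct, injection and toxin at once, so these cannot be told apart. The labels give neither the age of the mice nor whether a piece was tumour or surrounding tissue, and they do not say that each library came from its own mouse, so the spread behind each p-value is that among these libraries and may be only technical.

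The endothelium of liver sinusoids is unusual. Its cells carry open pores, have no organised basement membrane beneath them, and display scavenger receptors such as those encoded by Stab1, Stab2 and Clec4g, whereas the endothelium of arteries, veins and ordinary capillaries is continuous, joined by tight and adherens junctions and backed by a basement membrane. In chronic injury sinusoidal cells are known to lose their pores and take on features of ordinary capillaries, including CD34 and a basement membrane, a process called capillarisation. Vessels of hepatocellular carcinoma are also known to be CD34-positive. Several of the genes are not restricted to endothelium: Pecam1 is also used by platelets and leukocytes, Cd34 by blood progenitors and some fibroblasts, and Ly6a by lymphocytes and blood stem cells. In whole liver, more cells of a type and more RNA per cell cannot be told apart.

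The values are normalised counts, the authors' gene counts divided by a scaling factor per library. They summed to between 12373200 and 14150100 in the TAZ-CCl4 libraries and to between 29820000 and 35055300 in the controls, so the choice of scaling matters for the direction of weak changes. Over all tested genes the log2 fold change had a median of 0.03 as deposited and of 1.26 after scaling to equal totals. The Mup and mitochondrial genes held 3.67% to 6.97% of the signal in TAZ-CCl4 libraries and 24.2% to 36.9% in controls. Wwtr1 was listed at 9021, 4339, 5114, 4892 and 5299 normalised counts in TAZ-CCl4 replicates 1 to 5, against 463, 358 and 279.9 in control replicates 1 to 3, and whether the gene-level value includes transcripts of the construct is not given in the labels. Library project coincides with group in the labels, so the project and the treatment cannot be told apart.

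In the TAZ-CCl4 libraries 9 of the 10 genes rose and 1, Sox17, missed the threshold (limma, p under 0.05 after adjustment over all tested genes). Of all tested genes, 62.3% were called by the same rule, 32.4% higher and 29.8% lower. For 8 of the 10 genes every TAZ-CCl4 library lay above every control, against 30.7% of all tested genes, and 60.1% of tested genes had groups apart in either direction. The median log2 fold change of the 10 genes was 1.49. The largest fitted rises were those of Aplnr (4.80) and Cd34 (4.17), and only 1.31% and 2.65% of tested genes had a log2 fold change at or above these. Emcn (2.41), Cdh5 (1.93), Ly6a (1.59) and Vwf (1.39) followed. Esam (0.99), Pecam1 (0.93) and Plvap (0.64) rose by amounts that 25.1%, 26.1% and 30.9% of tested genes reached or passed.

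**Figure D1:**
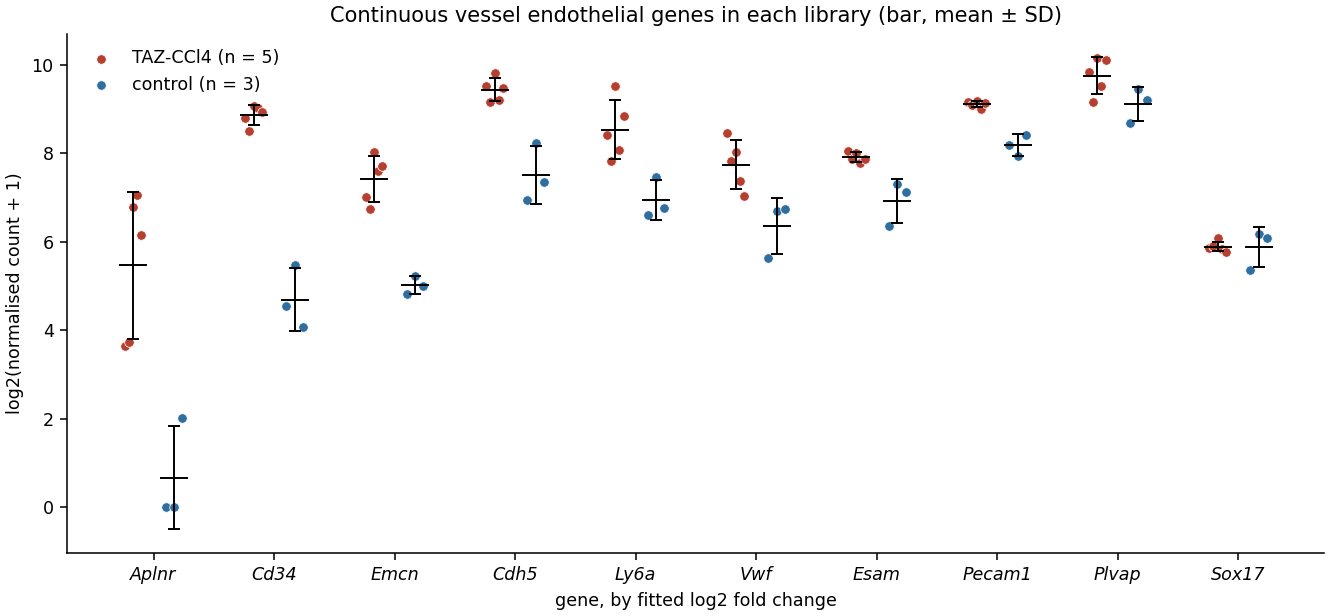
Normalised counts of the 10 vessel genes as log2(value + 1) in each library, with TAZ-CCl4 libraries (n = 5) left of controls (n = 3) and bars for the mean ± SD. The groups are apart for 8 genes, and overlap for Plvap and Sox17.

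Other scalings between libraries moved the table as a whole. At equal totals all 10 vessel genes were called higher, against 76.3% of tested genes higher and 6.37% lower. The same 10 calls were made at equal totals without the Mup and mitochondrial genes, against 62.9% of tested genes higher and 10.7% lower. At equal upper quartiles 9 were higher, against 38.6% higher and 23.4% lower of all tested genes. After quantile normalisation 8 were higher, 1 (Sox17) was lower and 1 (Vwf) missed the threshold, against 29% higher and 29.5% lower of all tested genes. The median log2 fold change of the 10 genes was 2.73 at equal totals, where that of all tested genes was 1.26, and 1.08 after quantile normalisation, where that of all tested genes was -0.02.

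**Figure D2:**
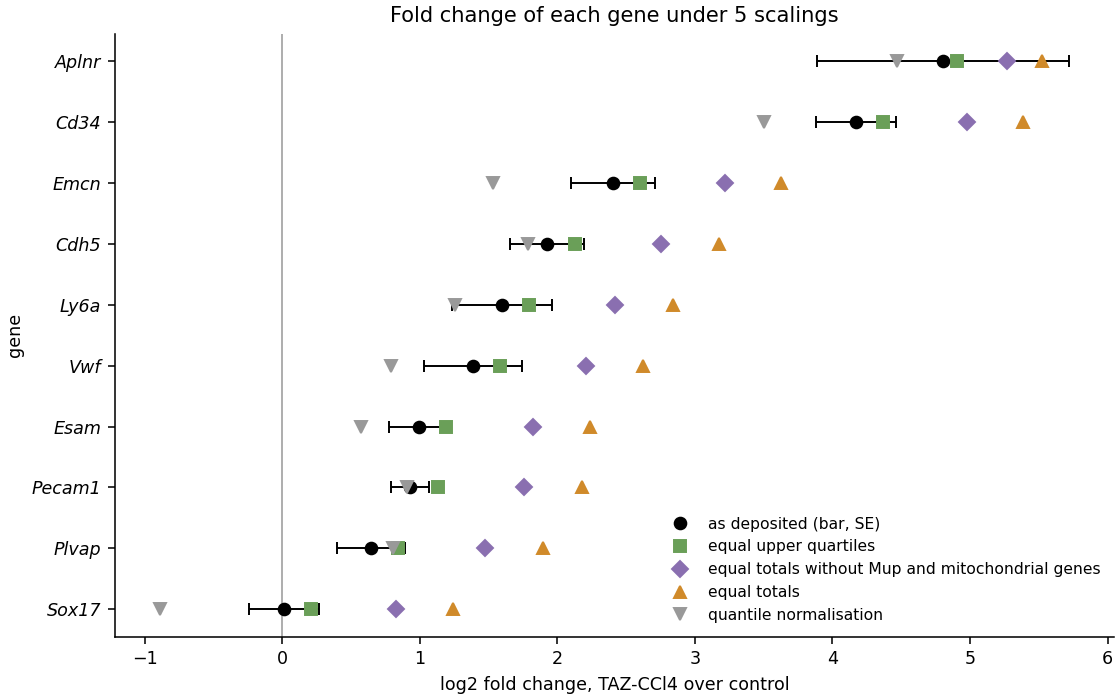
Log2 fold change of TAZ-CCl4 over control for each vessel gene as deposited (black, with SE) and under 4 other scalings. The order of Aplnr and Cd34 first and Sox17 last is the same in all 5, while Sox17 runs between -0.89 and 1.24 around 0.

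Cdh5, Pecam1 and Esam encode adhesion molecules of the endothelial junction. Cdh5 encodes VE-cadherin, the cadherin of adherens junctions, and lies on mm10 chromosome 8, 104101625 to 104144511, plus strand. It had 741, 574, 899, 588 and 716 normalised counts in TAZ-CCl4 replicates 1 to 5, against 122, 301 and 164 in control replicates 1 to 3. The lowest treated value was above the highest control, and control replicate 2 was well above the other controls. The mean was 704 ± 132 in TAZ-CCl4 libraries (SD, n = 5) and 195 ± 93.4 in controls (SD, n = 3), and the log2 fold change was 1.93 ± 0.27 (SE; limma, adjusted p = 0.000140).

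Pecam1 (chromosome 11, 106654217 to 106750628, minus strand) encodes CD31, an adhesion molecule at the contacts between endothelial cells. Its values were 569, 542, 584, 512 and 565 in the TAZ-CCl4 libraries and 293, 245 and 343 in the controls. The treated libraries were nearly level, with a coefficient of variation of 5.05%, against 16.7% among controls. The rise was 1.89-fold on means of 555 ± 28.0 in TAZ-CCl4 libraries (SD, n = 5) and 293 ± 49.1 in controls (SD, n = 3), and 0.93 on the log2 scale, ± 0.14 (SE; limma, adjusted p = 0.000224).

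Esam (chromosome 9, 37528078 to 37538319, plus strand), an immunoglobulin-like adhesion molecule of endothelial tight junctions, stood at 265, 235, 256, 218 and 234 in TAZ-CCl4 livers and at 81.1, 157 and 138 in control livers. Here too the groups did not overlap, and the treated values were close together. Its log2 fold change was 0.99 ± 0.22 (SE; limma, adjusted p = 0.00263). Of 13 partners of these junctions, most of them not restricted to endothelium, 8 rose and 5 missed the threshold. Their median log2 fold change was 0.82, and all 13 were called higher at equal totals, against 76.3% of all tested genes. F11r, which encodes the junctional adhesion molecule A, and Jup, plakoglobin, had log2 fold changes of 1.46 and 1.31, and Jam3, another junctional adhesion molecule, had 1.76.

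Cd34 and Emcn encode sialomucins, heavily glycosylated surface proteins of capillary and venous endothelium. The promoters of both are shown because these 2 genes had clear rises and are the 2 of 10 for which a RefSeq promoter entry (build GRCm38.p6, the assembly called mm10) was matched by symbol. Each line gives the 250 bases before the RefSeq start, 5′ to 3′ on the plus strand. The Cd34 window is chr1:194938571-194938820 and the Emcn window is chr3:137340828-137341077. Capitals mark every GGAA or its reverse complement TTCC, the core letters bound by ETS factors.
Cd34: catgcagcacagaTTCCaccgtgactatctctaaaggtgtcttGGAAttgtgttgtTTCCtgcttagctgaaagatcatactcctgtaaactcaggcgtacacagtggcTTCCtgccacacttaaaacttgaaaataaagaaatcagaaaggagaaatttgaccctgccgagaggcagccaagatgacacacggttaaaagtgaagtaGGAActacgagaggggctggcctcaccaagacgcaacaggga
Emcn: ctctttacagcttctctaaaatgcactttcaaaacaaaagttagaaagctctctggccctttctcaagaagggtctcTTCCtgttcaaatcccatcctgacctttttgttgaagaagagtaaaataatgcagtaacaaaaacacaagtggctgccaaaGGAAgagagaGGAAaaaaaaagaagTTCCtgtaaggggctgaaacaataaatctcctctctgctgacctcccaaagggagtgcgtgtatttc
The core occurs at 5 places in the Cd34 window and 4 in the Emcn window. It is common, with a median of 3 per window and at least 1 in 93.4% of 32851 RefSeq promoter windows of that length. The TEAD letters GGAATG, which contain the ETS core, were searched on both strands and are in neither window, against 12.6% of all windows. The SOX letters ACAAAG are in neither window, against 16.5%. These are matches of letters and describe no binding.

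Cd34 (chromosome 1, 194938819 to 194961279, plus strand) had 446, 362, 534, 522 and 486 normalised counts in TAZ-CCl4 replicates 1 to 5. In the controls it had 22.4, 43.3 and 15.8. The lowest treated library was far above the highest control. The mean was 469.9 ± 69.6 in TAZ-CCl4 libraries (SD, n = 5) and 27.1 ± 14.4 in controls (SD, n = 3), a 17.3-fold difference, or 4.17 ± 0.29 on the log2 scale (SE; limma, adjusted p = 1.85e-06). Podxl and Podxl2, the other members of the CD34 family, rose by 2.42 and 2.38 on the log2 scale. Gm16897 overlaps Cd34 on the other strand, as Gm29682 does Cdh5, and neither was analysed here.

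Emcn (chromosome 3, 137341067 to 137432185, plus strand) encodes endomucin, an anti-adhesive sialomucin. It was listed at 128, 106, 259, 195 and 210.3 in the TAZ-CCl4 libraries, against 27.1, 36.4 and 31.3 in the controls. Replicates 1 and 2 were lower than the other treated libraries but still well above the controls. The log2 fold change was 2.41 ± 0.30 (SE; limma, adjusted p = 7.36e-05).

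Vwf and Plvap mark stored and diaphragm proteins of vessels. Vwf (chromosome 6, 125546774 to 125686679, plus strand) encodes von Willebrand factor, the platelet-binding protein that endothelial cells store in Weibel-Palade bodies. It had 353, 225, 263, 165 and 131 normalised counts in TAZ-CCl4 replicates 1 to 5 and 48.9, 103 and 106 in the controls. The groups were apart, but the lowest treated library was close to the highest control. The log2 fold change was 1.39 ± 0.36 (SE; limma, adjusted p = 0.00654). After quantile normalisation the gene no longer passed, at 0.79 (limma, adjusted p = 0.0924).

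Plvap (chromosome 8, 71497765 to 71511752, minus strand) encodes the protein that forms the diaphragms of fenestrae and caveolae, structures of continuous and fenestrated capillaries that adult sinusoids mostly lack. Its values were 913, 569, 1138, 741 and 1106 in the TAZ-CCl4 libraries and 409.8, 696 and 593 in the controls, and TAZ-CCl4 replicate 2 lay below 2 of the controls. The log2 fold change of 0.64 ± 0.25 (SE) was just past the threshold (limma, adjusted p = 0.0443). The call was lost on leaving out TAZ-CCl4 replicate 1 (limma, adjusted p = 0.0750), TAZ-CCl4 replicate 3 (0.0861), TAZ-CCl4 replicate 5 (0.0908), control replicate 1 (0.204) or control replicate 3 (0.0804). It rose least of the 8 caveola and diaphragm genes, all of which rose, with a median of 2.91. Cav1, the main coat protein of caveolae, rose by 4.05 and Ehd2, an ATPase of the caveolar neck, by 3.49 on the log2 scale. Gtpbp3, which overlaps Plvap on the other strand, averaged 176 ± 36.6 in TAZ-CCl4 libraries and 222 ± 53.6 in controls (SD, n = 5 and 3).

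Aplnr (chromosome 2, 85136225 to 85139923, plus strand) encodes the apelin receptor, a G protein-coupled receptor of growing vessels. It was listed at 11.5, 12.3, 109, 132 and 70.5 normalised counts in TAZ-CCl4 replicates 1 to 5. Controls were listed at 0, 0 and 3.06. Every treated library was above the controls, but replicates 1 and 2 were several-fold below replicates 3 to 5, and the treated values spanned 11.4-fold. The log2 fold change on the log2(value + 1) scale was 4.80 ± 0.92 (SE; limma, adjusted p = 0.00110), the least precise of the 10. Its size depends on the pseudocount because the controls are near 0, and it was 3.11 with a pseudocount of 5 and 5.50 with 0.5, and 5.47 without control replicate 3, when both remaining controls are listed at 0.

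Both ligands of the receptor moved the same way. Apln, apelin, had 92.4, 45.5, 151, 61.0 and 37.1 normalised counts in TAZ-CCl4 libraries against 1.89, 2.41 and 1.20 in controls, a difference of 4.63 ± 0.48 on the log2 scale (SE; limma, adjusted p = 2.01e-05). Apela, the peptide hormone also called Elabela, had 598, 120, 849, 140.1 and 564 in TAZ-CCl4 libraries against 0, 4.87 and 0 in controls, and its fitted log2 fold change was 7.58 ± 0.79 (SE; limma, adjusted p = 2.07e-05). Like Aplnr, both ligands passed the filter only through the TAZ-CCl4 libraries. Ligand and receptor did not share their order among the treated libraries: Apela was high in replicate 1, where Aplnr was lowest. Of 11 tested ligands and binding partners of the vessel genes, 7 rose and 4 fell at the deposited scaling, with Adamts13, F8, Nrp1 and Vegfa lower. At equal totals 7 were higher and 0 lower, against 76.3% of all tested genes higher and 6.37% lower. Adamts13, the protease that cleaves von Willebrand factor, had a log2 fold change of -0.94, and F8, coagulation factor VIII, had -0.76, against 0.30 and 0.48 at equal totals.

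Sox17 (chromosome 1, 4490931 to 4497354, minus strand) encodes an HMG-box transcription factor of arterial endothelium. Its values were 57.6, 58.6, 66.7, 56.6 and 54.0 in TAZ-CCl4 libraries, against 40.5, 71.4 and 67.6 in controls, and the treated values lay inside the control range. The log2 fold change was 0.01 ± 0.25 (SE; limma, adjusted p = 0.971). At equal totals it was 1.24, close to the median of all genes under that scaling (limma, adjusted p = 0.00188), and after quantile normalisation it was -0.89 (limma, adjusted p = 0.00949), so its direction depended on the scaling. The related genes Sox7 and Sox18 had log2 fold changes of 1.06 and 1.08 (limma, adjusted p = 0.0135 and 0.0125), against 2.25 and 2.31 at equal totals and 0.07 and 0.34 after quantile normalisation. Of 17 tested transcription factor genes of endothelium, 11 rose, 1 (Gata4) fell and 5 missed the threshold. The median was 1.08, against 0.34 after quantile normalisation. Foxc1, a forkhead factor, rose by 3.90, and Lyl1 and Mef2c, with higher levels, by 3.43 and 2.72. Of the annotated 31-letter stretches of Sox17 transcripts, 15.7% also occur in Gm37587, which overlaps it on the other strand and was not analysed here.

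Ly6a (chromosome 15, 74994877 to 74998031, minus strand) encodes stem cell antigen 1, a GPI-anchored surface protein that interferon is known to induce. It had 342, 227, 739, 269 and 458 normalised counts in TAZ-CCl4 replicates 1 to 5 and 96.1, 175 and 109 in controls. The groups did not overlap, and replicate 3 stood highest by a wide margin. The log2 fold change was 1.59 ± 0.36 (SE; limma, adjusted p = 0.00324). Replicate 3 was also the highest treated library for 12 of 12 interferon-stimulated genes, for instance Ifit1 at 303, 289, 814, 439 and 546 in TAZ-CCl4 replicates 1 to 5, against 179, 142 and 168 in the controls. Of these 12 genes, 8 rose, Bst2 fell and 3 missed the threshold. At equal totals 11 were higher and none lower, against 76.3% of all tested genes higher and 6.37% lower. Ifit2 and Oas1a rose most, by 3.84 and 2.68, and their part in the result for Ly6a was not tested. Ly6a belongs to a family of close copies, and 31.9% of its 31-letter stretches also occur in transcripts of other genes, more of them in Ly6i than in any other gene, so its value is less certain than those of the others. Of 6 tested Ly6 family genes, 4 rose and 2 (Ly6d and Ly6h) missed the threshold, with 1 lower after quantile normalisation. Ly6c1 and Ly6c2, markers of monocytes and some endothelium, rose most, by 4.33 and 2.78 on the log2 scale.

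The treated libraries did not keep 1 order over the 10 genes. TAZ-CCl4 replicate 3 was the highest treated library for 7 genes (Pecam1, Cdh5, Cd34, Plvap, Emcn, Sox17 and Ly6a) and replicate 2 was the lowest for 5 (Cdh5, Cd34, Plvap, Emcn and Ly6a), the other 5 being lowest in replicates 1, 4 or 5. Vwf and Esam instead peaked in replicate 1. Among controls, replicate 1 was the lowest for 7 genes and replicate 2 the highest for 7. Spread within the treated group ran from a coefficient of variation of 5.05% for Pecam1, 7.63% for Esam and 8.13% for Sox17 to 50.5% for Ly6a and 81.8% for Aplnr.

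Levels of different genes are compared here per kilobase of annotated exon, as normalised counts per kb. The length joins the exons of all annotated transcripts, 7290 bases over 5 transcripts for Cd34 and 16064 over 11 for Vwf. It can exceed the length of the transcripts expressed and so lower a gene's level and rank. Plvap was the most abundant of the 10 in both groups, at 449.7 ± 122 in TAZ-CCl4 libraries and 285 ± 73.1 in controls (SD, n = 5 and 3). Ly6a was second in both, at 338 ± 170.5 in TAZ-CCl4 libraries and 105 ± 35.3 in controls, and the ranges of these 2 genes overlapped in the treated libraries. Cdh5 followed at 167 ± 31.4 in TAZ-CCl4 libraries and was close to Pecam1 and Esam in the controls, at 46.5 ± 22.2, 47.1 ± 7.88 and 43.7 ± 13.7 for the 3 genes. Pecam1 and Esam did not separate in treated libraries either, with ranges of 82.2 to 93.8 and 76.2 to 92.3. Cd34 had rank 6 in the treated libraries at 64.5 ± 9.55 and rank 9 in the controls at 3.72 ± 1.97. Sox17 had rank 10 in the treated libraries, with a mean of 12.3, and rank 6 in the controls, at 12.5 ± 3.53. Emcn had rank 7 in both, at 33.2 ± 11.5 in TAZ-CCl4 libraries and 5.84 ± 0.860 in controls. Vwf had 14.2 ± 5.42 in TAZ-CCl4 libraries and 5.36 ± 2.01 in controls, and Aplnr had 18.1 ± 14.8 in TAZ-CCl4 libraries and 0.275 ± 0.477 in controls. Vwf, Aplnr and Sox17 overlapped in the treated libraries.

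The scaling between libraries cancels, but for the pseudocount, in a ratio of 2 genes within a library, so each gene was also set against Cdh5. The 9 ratios to Cdh5 and 10 ratios to sinusoidal genes were tested by exact permutation, two-sided, over all 56 assignments of 8 libraries to groups of 5 and 3. No p below 0.0357 can be had in this design, and p-values were adjusted over the 19 by Benjamini-Hochberg. Of the ratios to Cdh5, 4 passed the threshold, each with groups that do not overlap (exact permutation p = 0.0357, adjusted p = 0.0485). That adjusted p depends on pooling with the 10 ratios to sinusoidal genes, all at the smallest p. The 4 passes thus lean on ratios that share 1 denominator, and adjusted over the 9 alone none would pass. Cd34 rose relative to Cdh5, with a mean log2 ratio of -0.58 ± 0.24 in TAZ-CCl4 libraries and -2.82 ± 0.45 in controls (SD, n = 5 and 3). Sox17 fell relative to Cdh5, at -3.54 ± 0.22 in TAZ-CCl4 libraries and -1.63 ± 0.40 in controls. Relative to Cdh5, Plvap fell likewise, at 0.32 ± 0.23 in TAZ-CCl4 libraries and 1.60 ± 0.34 in controls. So did Esam, at -1.52 ± 0.20 in TAZ-CCl4 libraries and -0.59 ± 0.35 in controls. Cdh5 itself had a log2 fold change of 1.93, against 0.01 for Sox17, 0.64 for Plvap and 0.99 for Esam. A gene that stays level or rises less therefore falls relative to Cdh5. The share of all tested genes with such ratios was not counted. The ratios of Pecam1, Vwf, Emcn, Aplnr and Ly6a to Cdh5 did not pass, with differences of -0.998, -0.54, 0.48, 2.87 and -0.33 and overlapping groups. The ratios of Cd34, Sox17, Plvap and Esam to Cdh5 thus kept the groups apart in these libraries, whatever factor scales each library. That is a description of these libraries, with no adjusted p of its own.

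**Figure D3:**
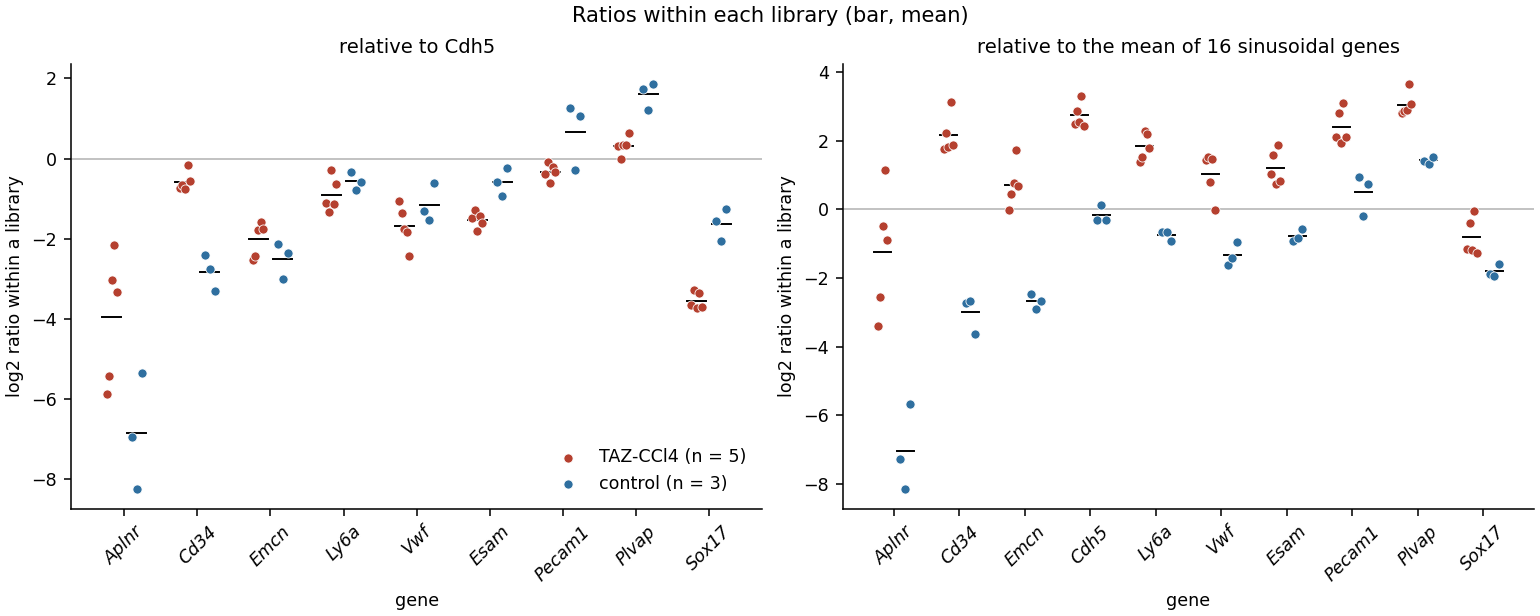
Log2 ratio of each vessel gene within a library to Cdh5 (left) and to the mean of 16 sinusoidal genes (right), TAZ-CCl4 libraries (n = 5) left of controls (n = 3), with bars for means. Cd34 stands higher and Sox17, Plvap and Esam stand lower relative to Cdh5 in TAZ-CCl4 libraries, and the 10 genes stand higher relative to the sinusoidal genes. The mean of the sinusoidal genes was itself lower in TAZ-CCl4 libraries at the deposited scaling, so a level gene tends to stand higher.

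The 16 sinusoidal genes moved the other way on balance by count and by median log2 fold change, but not in summed level. At the deposited scaling 10 fell, 3 rose (Stab1, Fcgr2b and Mrc1, all also used by macrophages) and 3 missed the threshold. Rspo3, among those that fell, is also in the venous list. Wnt2 and Wnt9b, also among those that fell, passed the filter only through the controls. Their means were 27.6 and 24.6 in controls and 8.03 and 6.98 in TAZ-CCl4 libraries. Some of the genes that fell may likewise be used by other cells. Which cells the rises and falls came from was not tested. The median of the 16 was -1.57 on the log2 scale. Their summed level was 4390 to 5525 normalised counts in TAZ-CCl4 libraries and 3874 to 6811 in controls, ranges that overlap. At equal totals 1 of the 16 was lower, 5 were higher and 10 missed the threshold, against 76.3% of all tested genes higher and 6.37% lower. The median there was -0.33 against 1.26 for all tested genes. Clec4g, a lectin of sinusoidal cells, had 126, 29.9, 129, 20.8 and 169 normalised counts in TAZ-CCl4 libraries, against 292, 679 and 451 in controls. Its log2 fold change was -2.65 ± 0.67 (SE; limma, adjusted p = 0.00583), and at equal totals it was -1.41 and not called (limma, adjusted p = 0.0649). Bmp2, a sinusoidal signal for iron sensing in hepatocytes, fell by 1.92 at the deposited scaling and was not called at equal totals (-0.68; limma, adjusted p = 0.0939). Relative to the mean of these 16 genes each of the 10 vessel genes was higher in every TAZ-CCl4 library than in any control (exact permutation p = 0.0357, adjusted p = 0.0485 for each). The difference in log2 ratio was 5.78 for Aplnr and 5.15 for Cd34, but 3.98 and 4.83 with a pseudocount of 5, and 5.23 and 5.33 without control replicate 2, so these genes have no fixed order. It was 2.91 for Cdh5, and was smallest for Sox17 (0.99), whose mean log2 ratio was -0.82 ± 0.55 in TAZ-CCl4 libraries and -1.81 ± 0.20 in controls (SD, n = 5 and 3). Each of these ratios shares the same 16 genes, so the 10 results are not independent. At the deposited scaling the mean log2 value of the 16 was itself lower in every TAZ-CCl4 library (5.90 to 7.26) than in any control (7.27 to 8.13). The groups nearly met, at 7.26 in TAZ-CCl4 replicate 3 and 7.27 in control replicate 1. A gene that stays level, as Sox17 did with a log2 fold change of 0.01, therefore tends to stand higher relative to that mean. The share of all tested genes that stand higher in this way was not counted. Taken alone, these 10 tests thus cannot tell a rise of a vessel gene from the fall of the 16. The mean log2 value of the 10 genes less that of the 16 sinusoidal genes was 0.84, 1.29, 1.20, 2.15 and 1.05 in TAZ-CCl4 replicates 1 to 5 and -1.56, -1.73 and -1.40 in control replicates 1 to 3.

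**Figure D4:**
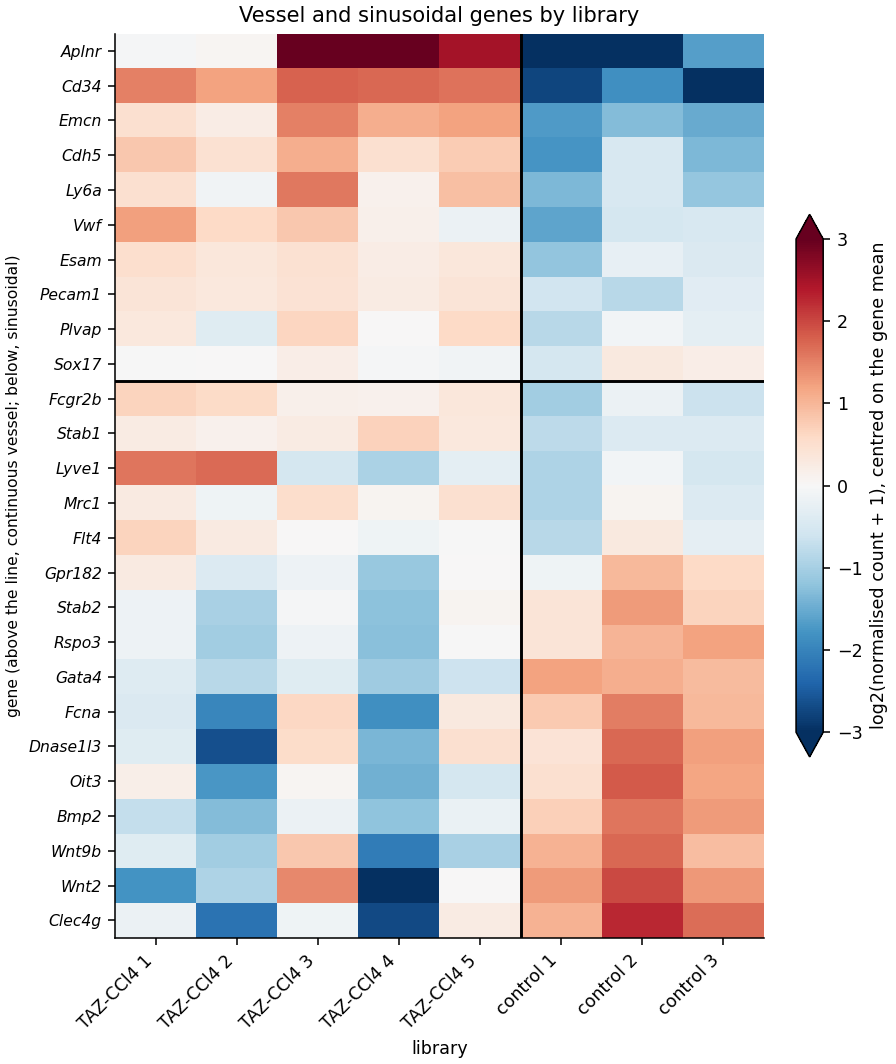
Log2(normalised count + 1) of the 10 vessel genes (above the line) and 16 sinusoidal genes (below), each centred on its own mean over the 8 libraries, with colours clipped at 3 either way. Most vessel genes are above their mean in the 5 TAZ-CCl4 columns, and most sinusoidal genes are above theirs in the 3 control columns.

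Other endothelial genes were counted by list, and differences between lists were not tested. Counts at equal totals, here and below, stand against 76.3% of all tested genes higher and 6.37% lower. Those after quantile normalisation stand against 29% higher and 29.5% lower. Of 24 tested pan-endothelial genes, 14 rose, 2 fell (S1pr1 and Arhgef15) and 8 missed the threshold, among them Kdr, Tek, Eng and Ptprb. The median was 0.86. At equal totals 23 were called higher and none lower, and quantile normalisation left 6 higher and 2 lower. Cd93 and Ecscr, both surface proteins of endothelial migration, rose most, by 3.69 and 2.52. Of 17 tip cell and tumour vessel genes, which include Aplnr and Plvap, 16 rose and only Insr missed the threshold (17 higher at equal totals, 13 after quantile normalisation). Their median was 1.92. Cxcr4, the receptor of the chemokine CXCL12, and Pdgfb, a pericyte-recruiting growth factor, rose by 5.09 and 4.84. The value of Cxcr4 leans on 1 control listed at 0, the others being at 20.1 and 19.8, and its ratio of means (19.6) was below that of Pdgfb (29.1). Esm1, a proteoglycan gene of tip cells, was listed at 324, 180.0, 345, 137 and 251 in TAZ-CCl4 libraries and at 3.78, 8.45 and 13.2 in controls. Like Aplnr, it passed the filter only through the TAZ-CCl4 libraries.

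Of 14 tested arterial genes, which include Sox17, 11 rose, 1 fell (Nrp1) and 2 (Sox17 and Gja4) missed the threshold. Their median was 2.34, and after quantile normalisation 9 were higher and 2 lower. Jag1, a Notch ligand, and Sema3g, a semaphorin, rose most, by 3.78 and 3.12. Of 9 venous genes, 4 rose, 2 (Rspo3 and Nr2f2) fell and 3 missed the threshold, with Vcam1 (2.74) and Cpe (1.75) rising most. At equal totals none was lower and 6 were higher, no more than the share of all tested genes (76.3%). Of 12 genes of the endothelial basement membrane, the layer that normal sinusoids lack in organised form, 11 rose and 1 fell, with a median of 2.88. The gene that fell, Col18a1, was higher at equal totals. Lama5 and Nid1, a laminin chain and the nidogen that links laminin to collagen IV, rose most, by 5.65 and 4.74. Laminins, nidogens and collagen IV are made by several cell types of liver, so these counts are not those of endothelium alone.

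**Figure D5:**
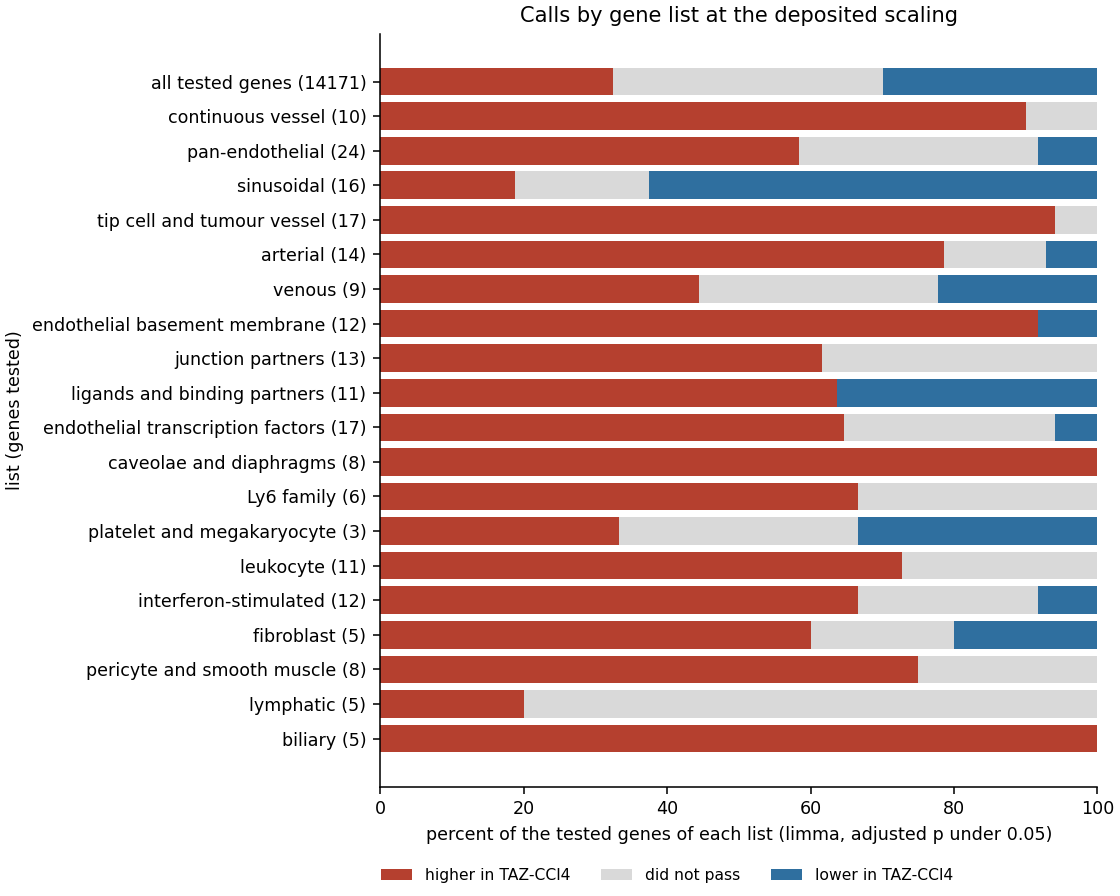
Percent of tested genes in each list called higher (red), not passing (grey) and lower (blue) in TAZ-CCl4 libraries at the deposited scaling, with the number tested in brackets and all tested genes on top. Of the continuous vessel genes 9 of 10 are higher and 10 of 16 sinusoidal genes are lower, against 32.4% higher and 29.8% lower of all tested genes.

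Markers of other cells that use some of the same genes moved as well. Of 11 leukocyte genes, 8 rose and 3 missed the threshold (7 higher and 2 lower after quantile normalisation), with a summed level of 9558 to 17349 normalised counts in TAZ-CCl4 libraries and 888 to 1317 in controls. None was at 0 in all libraries of a group. Ptprc, the pan-leukocyte gene CD45, rose by 3.16, and the myeloid genes Itgam and Lyz2 rose by 4.79 and 4.10. Of 10 platelet and megakaryocyte genes only 3 reached the filter, of which Pf4 rose by 3.34, Itga2b fell by 1.06 and Itgb3 missed the threshold, and at equal totals Itga2b was at 0.18. The summed level was 179.6 to 301 in TAZ-CCl4 libraries and 161 to 219 in controls. Among those below the filter, and so not tested, Gp6, a platelet collagen receptor, had 2.66, 4.05, 6.80, 5.73 and 4.28 in TAZ-CCl4 libraries against 22.2, 11.8 and 17.6 in controls, groups that do not overlap, while Gp1ba and Gp9, subunits of another platelet receptor, were at most 4.53 in any library. Of 5 tested fibroblast genes 3 rose, Lum (2.49) and Pdgfra (2.07) most, 1 fell and 1 missed the threshold, and the summed level of the list was 1698 to 2600.1 in TAZ-CCl4 libraries and 2821 to 3132 in controls. Of 8 pericyte and smooth muscle genes 6 rose, Notch3 (2.83) and Pdgfrb (2.66) most, with sums of 2203 to 3631 in TAZ-CCl4 libraries and 594 to 1058 in controls. Of 5 lymphatic genes, Pdpn rose by 3.23 and 4 missed the threshold, with sums of 2829 to 3438 in TAZ-CCl4 libraries and 1841 to 3298 in controls. All 5 biliary genes rose, Krt7 (5.15) and Spp1 (4.77) most, with sums of 33505 to 119673 in TAZ-CCl4 libraries and 1861 to 2546 in controls. The part of these cells in the rises of Pecam1, Cd34, Vwf and Ly6a was not tested.

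The genes whose profile over the 8 libraries came nearest to the mean profile of the 10 were Mfng, Prex1 and Itga4. The root mean square difference of centred log2 values was 0.13, 0.14 and 0.14, the smallest among 14161 other tested genes. Mfng, which encodes a glycosyltransferase that modifies Notch receptors, averaged 84.7 ± 11.2 normalised counts in TAZ-CCl4 libraries and 20.3 ± 3.88 in controls (SD, n = 5 and 3). Prex1 encodes an exchange factor for Rac and Itga4 the alpha 4 integrin, both well known in leukocytes. Prex1 averaged 422 ± 87.6 in TAZ-CCl4 libraries and 114 ± 23.1 in controls, and Itga4 averaged 278 ± 49.7 in TAZ-CCl4 libraries and 81.5 ± 22.1 in controls. With 2 groups that differ this much, a near profile mainly means a like difference between the groups.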

How the data were processed

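Gene expression was measured by paired-end sequencing of poly-A RNA from liver, in 5 TAZ-CCl4 and 3 control libraries. The authors deposited a signal per gene and library, gene-level counts divided by scaling factors; kallisto and DESeq2 stand in the deposited table's name, and DESeq2 and mm10 are given per the submitters' processing notes. The sources used here give no version, annotation, filter or strand setting. Taking the most frequent low value as 1 read, 47.3% to 66.8% of values under 10 lay within 0.03 of whole multiples, so no whole reads could be had from the table, and count models were left out. That step gives a rough depth of 12.4 M to 33.8 M reads in TAZ-CCl4 libraries and 18.6 M to 24.9 M in controls.

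Values were transformed as log2(value + 1), a scale that understates changes of low genes. Genes with a mean of at least 10 were tested with limma 3.58.1 under R 4.3.3, letting the prior variance follow the mean, with Benjamini-Hochberg adjustment over 14171 genes and a threshold of 0.05. The script was tested on simulated data, with 100 genes changed 2-fold and 100 changed 4-fold, far fewer than were called here. It recovered 50% of the 2-fold and 75% of the 4-fold changes, with 12 false calls among 14171 genes. A gene that missed the threshold may therefore still have changed. Positions and exon lengths came from GENCODE release M21 (mm10), and stretches of 31 letters shared between transcripts were counted in the same release. The genes and the 18 companion lists were chosen with earlier results of these data known, and lists share members. Besides the 10 genes, the text names the 2 called genes with the largest change and a higher group mean of at least 50 from each list, and the 3 nearest profiles; other list genes are examples chosen after their values were seen. Same-numbered libraries of the groups had correlations of deviations of -0.09 to -0.06, so the numbers pair nothing.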

Additional observations from a re-analysis of the deposited data

How the results depend on the processing

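Across 20 settings (the main one, 4 other scalings, 2 pseudocounts, 2 filters, no variance trend, array weights, a replicate block and 8 with 1 library left out), 7 of the 10 genes were called higher in every setting in which they were tested: Pecam1, Cdh5, Cd34, Esam, Emcn, Aplnr and Ly6a. Aplnr was not tested with a mean of at least 50. How many of all tested genes were called higher in every setting was not counted, so 7 of 10 has no background share. The count of vessel genes called higher was 8 to 10, and 1 (Sox17) was called lower after quantile normalisation. The count over all genes was 4592 higher and 4230 lower, and it moved to 10808 and 903 at equal totals, or 8912 and 1512 when Mup and mitochondrial genes were kept out of those totals. Leaving out 1 library gave 8 to 9 vessel genes higher and 0 lower, and 4047 to 4575 genes higher and 3576 to 4288 lower. Sox17, not called as deposited, changed sign after quantile normalisation (-0.89), with array weights (-0.054), without TAZ-CCl4 replicate 3 (-0.034) and without control replicate 1 (-0.24). It ran from -0.24 to 0.16 with 1 library left out, and was called higher at equal totals (1.24) or with those genes kept out of the totals (0.83). Plvap lost its call without the filter, without the variance trend and under the replicate block, with limma adjusted p-values of 0.0560, 0.0715 and 0.130. The replicate block gave 8 vessel genes higher and 0 lower, with 3801 genes higher and 3479 lower, and changed no other vessel gene's call. The cause of these changes was not tested. The 19 ratios kept their direction without any 1 library and at both other pseudocounts, and splits of 7 libraries are too few for the test to pass. Low values limit Aplnr, whose controls are at or near 0.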
